A study of Mus musculus with 48 samples.

Results

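DNA replication licensing genes were followed in whole tibia of young and aged mice on caloric restriction (CR) or ad libitum feeding (AL). The set was named by gene symbol and holds 10 of the 29801 genes in the table: the 6 subunits of the MCM helicase (Mcm2, Mcm3, Mcm4, Mcm5, Mcm6 and Mcm7), the loading factors Cdc6 and Cdt1, the sliding clamp Pcna and the ribonucleotide reductase subunit Rrm2. They were picked by symbol, with earlier results of these data known. All 10 were above the expression limit for testing, a mean of at least 1 FPKM (fragments counted per kilobase of transcript, relative to library size), which 13590 genes met. Strictly, Pcna and Rrm2 act after licensing, at the fork and in nucleotide supply, and the set name is used here for all 10.

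The mice were male C57Bl6J, and 3 mice made up each of 4 groups: AL and CR at young age, and AL and CR at old age. By the series description, young mice were 10 weeks and aged mice 15 to 18 months old when the diets began. Tissue was taken after the 8 weeks of diet, so the mice were older by then, and in that time the food of CR mice was reduced stepwise, by 10%, then by 20% a week later and finally by 40%. CR mice ate a modified NIH-31/NIA diet enriched in micronutrients and AL mice the NIH-31 open formula, so the amount eaten and the formulation differed together. Each mouse has 4 technical repeats in the labels and 1 column in the table, and it counted once. In bulk RNA of this kind, fewer dividing cells and less RNA per dividing cell cannot be told apart.

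Before a cell copies its DNA, each replication origin is licensed: the origin recognition complex, Cdc6 and Cdt1 load the ring of Mcm2 to Mcm7 around the double helix. In S phase the loaded ring becomes the motor of the replicative helicase, and loading is then blocked so that each origin fires once per cycle. These genes are transcribed under control of E2F factors and are high in dividing cells, which in the tibia are mostly blood precursors of the red marrow, with a smaller part in the growth plate and among bone-forming cells.

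Because E2F control is the best known shared feature of this gene set, the promoters were searched for it. RefSeq promoter windows on GRCm38.p6, from 250 bases before to 50 after the start site, were found for 9 of the 10 genes, and Mcm7 has an alternative start with its own window. Of these 9 genes, 6 held at least 1 of the E2F 8-mers TTTCCCGC, TTTGGCGC, TTTCGCGC and TTTGCCGC on either strand, against 2.26% of the 32851 windows in the table. The CCAAT box was present in 7 of 9 genes and in 37.4% of all windows. The CHR element TTTGAA, known from genes of late cell cycle, was present only in the Mcm2 window among the 9, and in 17.9% of all windows. The stretches around the E2F matches of the 6 genes follow on the strand of the gene, with the matches in capitals. Overlapping matches run together.
Mcm3, chr1:20820266-20820294, minus strand: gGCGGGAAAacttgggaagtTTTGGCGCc
Mcm5, chr8:75109344-75109379, plus strand: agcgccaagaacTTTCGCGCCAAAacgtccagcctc
Mcm6, chr1:128359733-128359827, minus strand: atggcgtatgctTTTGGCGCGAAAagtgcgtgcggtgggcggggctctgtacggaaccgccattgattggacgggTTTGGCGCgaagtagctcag
Mcm7, upstream, chr5:138172029-138172060, minus strand: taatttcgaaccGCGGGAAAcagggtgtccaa
Mcm7, after the start, chr5:138171849-138171878, minus strand: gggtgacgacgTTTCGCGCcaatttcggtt
Cdc6, chr11:98908001-98908032, plus strand: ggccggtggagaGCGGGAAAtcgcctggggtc
Cdt1, chr8:122568036-122568064, plus strand: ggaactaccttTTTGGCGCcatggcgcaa
Mcm5 and Mcm6 carried 2 overlapping matches in opposite orientation, and Mcm6 a further one nearer its start. In Mcm3 and Cdt1 all matches lay after the start site, from base 20 and from base 33. The windows of Mcm2, Pcna and Rrm2 held none of these letters, which says nothing of binding elsewhere. Upstream and after the start refer to the RefSeq start sites. In the GENCODE M21 annotation Mcm7 begins farther upstream, at chr5:138172422, and so does Cdc6, at chr11:98907801. The windows of these genes therefore lie inside the genes as annotated there.

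The 10 genes were well expressed in the tibia. Pcna, the ring that tethers DNA polymerases to the template, was the highest at a mean of 213 FPKM over the 12 mice (SD 18.7), and only 2.23% of the tested genes were higher. Rrm2, the small subunit that makes ribonucleotide reductase active in S phase, followed at 144 FPKM (SD 15.4). The MCM subunits lay between 81.4 FPKM for Mcm6 and 30.6 FPKM for Mcm4. Cdt1, the loading factor destroyed in S phase, reached 29.0 FPKM (SD 2.32), and the ATPase Cdc6, which closes the origin complex around the DNA, was lowest at 16.8 FPKM (SD 1.50). FPKM are scaled to transcript length, which allows a comparison between genes. It is less certain for Pcna and Mcm7, which share sequence with pseudogenes.

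The order of the levels held in nearly every mouse. It ran Pcna, Rrm2, Mcm6, Mcm7, Mcm3, Mcm5, Mcm2, Mcm4, Cdt1, Cdc6, and 7 of the 9 neighbouring pairs kept it in 12 of 12 mice. Mcm3 was above Mcm5 in 11 of 12 mice and Mcm4 above Cdt1 in 10 of 12, and the ranges of the 12 mice overlapped in both pairs. They also overlapped for Mcm6 and Mcm7, Mcm7 and Mcm3, and Mcm5 and Mcm2, and were separate for the other 4 neighbouring pairs. Mcm6 exceeded Mcm7 in all 12 mice, but by a ratio of as little as 1.01 in 1 of them.

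The MCM ring holds 1 copy of each subunit, while the transcripts were present in unequal amounts. Of the summed FPKM of the 6 genes, Mcm6 made up 23.7% (SD 0.814, n = 12 mice), Mcm7 21.7% (SD 0.806) and Mcm3 16.9% (SD 1.19). Mcm5 held 15.0% (SD 0.620), Mcm2 13.7% (SD 0.617) and Mcm4 8.91% (SD 0.537). The share of Mcm6 was 23.8% in young AL, 23.8% in young CR, 24.0% in aged AL and 23.3% in aged CR mice. Mcm2 had its lowest mean share in young AL mice, 12.9%, against 13.8% to 14.1% in the other groups.

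**Figure D1:**
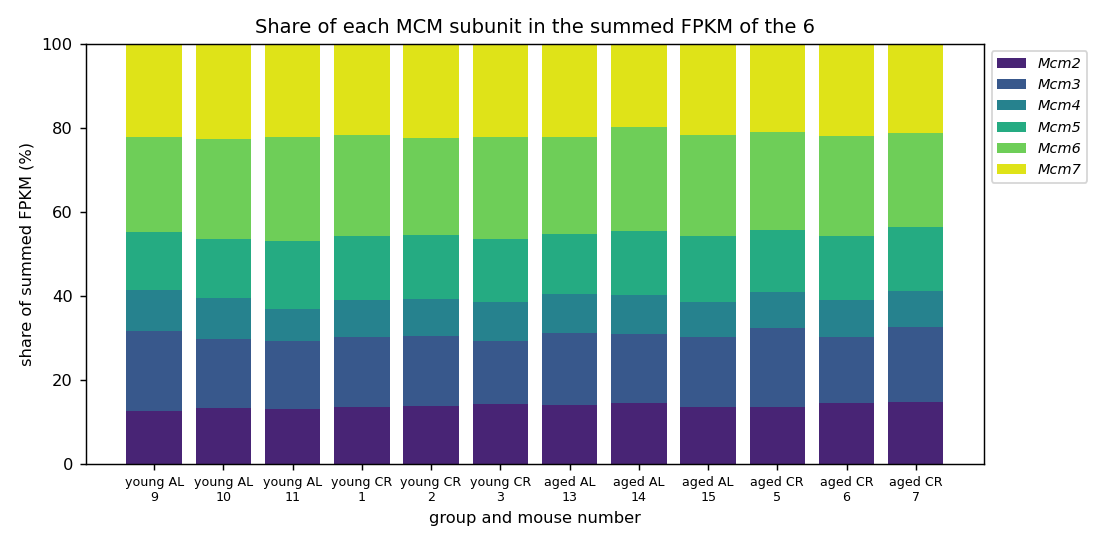
Share of each MCM subunit in the summed FPKM of the 6 genes, in percent, for each of the 12 mice (1 stacked bar per mouse, grouped by age and diet). Mcm6 and Mcm7 are the largest blocks in every bar and Mcm4 the smallest, at a mean of 8.91%.

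Among the genes of the ring, Mcm2, a subunit that also holds histones at the fork, had 45.0, 47.0 and 44.6 FPKM in the 3 young AL mice and 47.2, 48.7 and 51.2 FPKM in the 3 young CR mice. It had 49.4, 49.9 and 39.5 FPKM in aged AL and 41.8, 50.1 and 50.3 FPKM in aged CR mice. The young groups did not overlap, with CR above AL by a narrow margin, while each aged group held 1 mouse below all young mice.
Mcm7, a core subunit of the helicase motor, had 79.1, 80.4 and 76.1 FPKM in young AL and 76.0, 79.9 and 80.1 FPKM in young CR mice. In aged AL mice it had 78.4, 68.3 and 63.0 FPKM and in aged CR mice 65.1, 76.4 and 72.9 FPKM. All 6 young mice lay within a few FPKM of each other, and 4 of the 6 aged mice were below every young mouse.
Mcm6, the most abundant of the 6, had 79.9, 85.3 and 86.2 FPKM in young AL, and 84.2, 82.8 and 87.3 FPKM in young CR mice. It had 81.2, 86.2 and 69.7 FPKM in aged AL, and 72.9, 83.3 and 77.4 FPKM in aged CR mice. All groups compared overlapped, young CR and aged CR by less than 1 FPKM. Mcm3 ranged from 47.8 to 67.6 FPKM, Mcm4 from 24.6 to 34.3 FPKM and Mcm5 from 45.6 to 55.3 FPKM over the 12 mice, with overlap between the groups of every pair compared.

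The loading factors were as level as the ring. Cdc6 had 17.0, 17.2 and 17.0 FPKM in young AL, 16.5, 17.5 and 17.9 FPKM in young CR, 18.7, 16.6 and 12.9 FPKM in aged AL, and 15.8, 18.4 and 16.2 FPKM in aged CR mice. Aged AL mice held both the highest and the lowest value of this gene. Cdt1 had 31.1, 27.6 and 30.5 FPKM in young AL, 29.9, 31.0 and 32.2 FPKM in young CR, 31.5, 25.7 and 25.9 FPKM in aged AL, and 26.5, 27.5 and 28.3 FPKM in aged CR mice. The aged CR mice all lay below the young CR mice, and the other pairs of groups overlapped.

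Pcna had 234, 238 and 202 FPKM in young AL, 213, 222 and 219 FPKM in young CR, 208, 230 and 179 FPKM in aged AL, and 187, 223 and 198 FPKM in aged CR mice. All pairs of groups overlapped. Rrm2 had 156, 145 and 135 FPKM in young AL, 139, 142 and 157 FPKM in young CR, 158, 163 and 113 FPKM in aged AL, and 120, 156 and 144 FPKM in aged CR mice. Its highest and lowest mouse both belonged to the aged AL group.

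**Figure D2:**
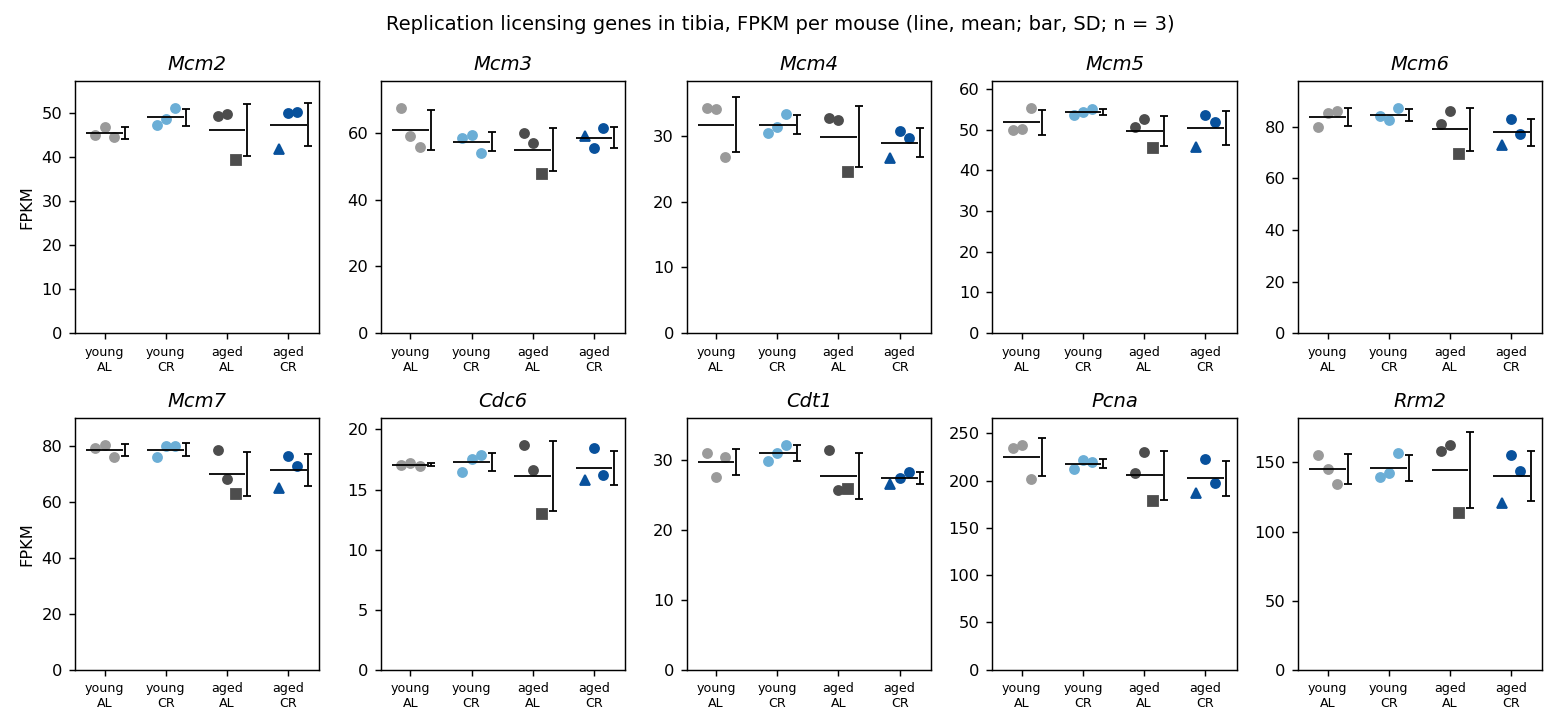
FPKM of each of the 10 genes by group, from 0, with 1 point per mouse, the group mean as a line and its SD as a bar (n = 3). Squares mark aged AL mouse 15 and triangles aged CR mouse 5, which sit at the bottom of most panels; the group means lie close together in each panel.

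The first question was whether CR moved these genes. In young mice, 8 of the 10 were higher and 2 lower with CR, and the log2 fold changes ran from -0.079 for Mcm3 to 0.10 for Mcm2, with a median of 0.013 beside 0.0082 for all tested genes. None of the 10 was called (limma, adjusted p from 0.737 to 0.998), where 0.0662% of all tested genes were, and 0 reached an unadjusted p under 0.05, against 11% of all genes. An unequal-variance test on FPKM also gave 0 at an unadjusted p under 0.05. The groups of 1 of the 10 genes, Mcm2, did not overlap, where this held for 19.5% of all tested genes. The 95% intervals of the folds reached at most from 0.812 for Mcm3 to 1.26 for Mcm2, and those of the other genes lay within these bounds.

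In aged mice 5 of the genes were higher and 5 lower with CR. The log2 fold changes ran from -0.037 for Rrm2 to 0.098 for Mcm3, with a median of 0.0084 beside -0.0044 for all tested genes. The count of called genes was 0 of 10 (limma, adjusted p from 0.869 to 0.996) and 0% of all genes, and at an unadjusted p under 0.05 it was 0 of 10 against 7.72%. The unequal-variance test gave 0 as well. No gene had groups that did not overlap, against 11% of all tested genes, and the intervals of the folds reached from 0.788 for Rrm2 to 1.25 for Cdc6.

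Over both ages the log2 fold changes for CR lay between -0.030 for Pcna and 0.071 for Mcm2, with standard errors of 0.059 to 0.099. None was called (limma, adjusted p from 0.701 to 0.998; 0.258% of all genes) and 0 of 10 reached an unadjusted p under 0.05 (13.9% of all genes). In the exact permutation test within age, two-sided, which can go as low as p = 0.005, the smallest p was 0.32, for Mcm2. The effect of diet was not detectably different between ages either: for the interaction 0 of 10 genes were called (limma, adjusted p = 0.999 for each; 0% of all genes) and 0 reached an unadjusted p under 0.05 (4.23%). The interval of the interaction was widest for Rrm2, -0.48 to 0.39 on the log2 scale.

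The second question was age. All 10 genes had lower means in aged than in young mice over both diets, by a median log2 fold change of -0.096 beside -0.017 for all tested genes. None was called (limma, adjusted p from 0.251 to 0.927), where 0.758% of all genes were, and 2 of 10 reached an unadjusted p under 0.05, against 16.6% of all genes. These were Mcm7, with a log2 fold change of -0.16 (standard error 0.063, limma p = 0.0312, adjusted p = 0.251), and Cdt1, at -0.14 (standard error 0.062, limma p = 0.0485, adjusted p = 0.298). The exact permutation test within diet gave p = 0.02 for Mcm7 and 0.05 for Cdt1, two-sided and not adjusted for the other genes. Mcm6 was at -0.11 (exact permutation p = 0.1), Pcna at -0.12 (exact permutation p = 0.14), and Mcm2 was nearest to 0, at -0.019. A share of 2 in 10 is near the 16.6% of all genes and is not a result about the gene set.

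Within each diet the values were much alike. In AL mice 9 of 10 genes were lower in aged mice, by a median of -0.091 beside -0.013 for all tested genes. None was called (limma, adjusted p from 0.611 to 0.977; 0.0662% of all genes), 0 reached an unadjusted p under 0.05 (8.65%), and 0 had groups that did not overlap (13.2%). In CR mice 9 of 10 were lower, by a median of -0.11 beside -0.023. None was called there (limma, adjusted p from 0.491 to 0.942; 0.361% of all genes), 0 reached an unadjusted p under 0.05 (11.4%), and 1, Cdt1, had groups that did not overlap (18.5%). The unequal-variance test on FPKM gave 0 of 10 at an unadjusted p under 0.05 in AL mice and 1 of 10, Cdt1, in CR mice (unadjusted p = 0.0153). The intervals of the folds reached from 0.774 for Mcm7 to 1.22 for Rrm2 in AL mice, and from 0.757 for Mcm4 to 1.19 for Mcm3 in CR mice.

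**Figure D3:**
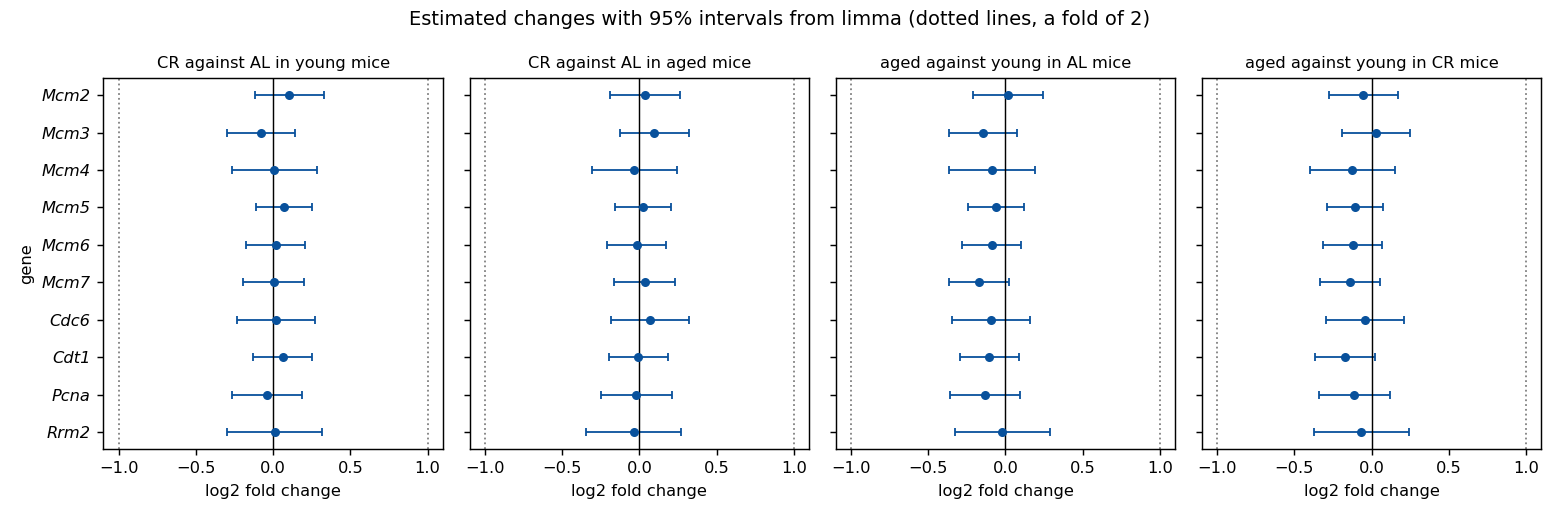
Log2 fold change of each of the 10 genes with its 95% interval from limma in 4 comparisons, on 1 common axis, with dotted lines at a fold of 2. All intervals cross 0 and stay far inside the dotted lines, and most estimates for age lie left of 0.

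Of the 12 mice, 2 aged ones stood below the rest for these genes. Aged AL mouse 15 was the lowest of the 12 for 9 of the 10 genes, and aged CR mouse 5 was among the 2 lowest for 8 of them. Averaged over the 10 genes, mouse 15 deviated from the 12-mouse mean by -0.25 and mouse 5 by -0.15 on the log2 scale, while the other 10 mice lay between -0.014 and 0.088. Without both mice, a choice made after these values were seen, the median log2 fold change for age was -0.017, with Mcm7 at -0.088 (limma, adjusted p = 0.435) and Cdt1 at -0.10 (adjusted p = 0.451). Mcm2, Cdc6 and Rrm2 were then on the other side of 0, at 0.078, 0.023 and 0.091.

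**Figure D4:**
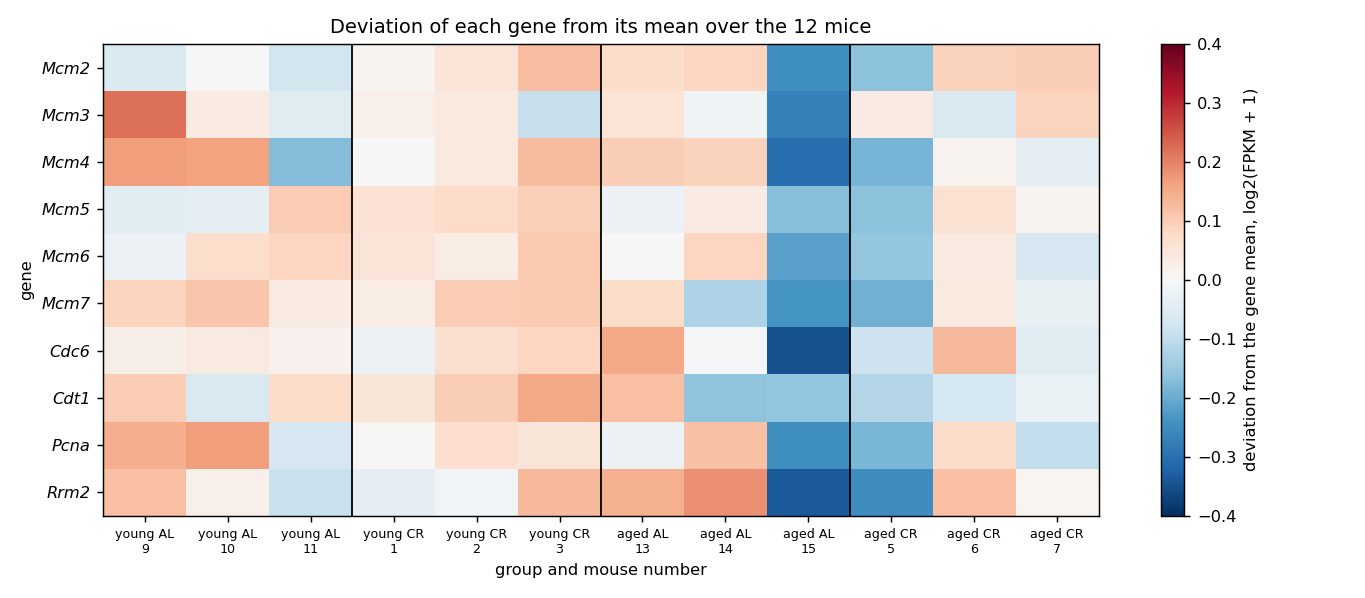
Deviation of each gene (rows) in each mouse (columns, by group and mouse number) from its 12-mouse mean, in log2(FPKM + 1), blue for lower and red for higher. The column of aged AL mouse 15 is blue throughout, and that of aged CR mouse 5 for all genes but Mcm3.

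The genes varied little between mice. The ratio of the highest to the lowest mouse was 1.21 for Mcm5 and 1.45 for Cdc6, and between these values for the rest. The SD over the 12 mice had a median of 0.12 on the log2 scale for the 10 genes and of 0.16 for all tested genes, and Mcm5 was steadier than all but 8.54% of the tested genes. Rrm2 varied most, with an SD of 0.16 that 50.8% of the tested genes stayed under. Within the groups the median SD was 0.12 for the 10 genes and 0.15 for all tested genes, and 68.6% of the tested genes stayed under Rrm2. The tested genes were not matched for level. What variation there was ran together: over the 12 mice all 45 pairs of genes had a positive Pearson r, with a median of 0.67. These mice share their groups and, by quantile normalization, a common distribution, and without the 2 low mice the median r was 0.13, with 28 of 45 pairs above 0.

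Lists of genes of the neighbouring steps of DNA replication were counted in the same way. None of the 15 genes of origin recognition and licensing control, 22 of origin firing and helicase activation, 28 of DNA polymerases and fork proteins, 14 of nucleotide supply, 9 of chromatin and methylation at the fork, and 15 tested E2F and pocket protein genes was called for diet or for age over the other factor. Means were lower in aged mice for 11 of the 15 origin recognition genes (median log2 fold change -0.054), 21 of the 22 origin firing genes (-0.088) and 26 of the 28 polymerase and fork genes (-0.10). The same held for 12 of the 14 nucleotide supply genes (-0.067) and 8 of the 9 chromatin genes (-0.093), but for only 8 of the 15 E2F and pocket protein genes (-0.0062), beside a median of -0.017 for all tested genes. For diet the medians of these 6 lists lay between -0.053 and 0.012.

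Some genes of these lists, taken from the 3 smallest p-values of each, are given with their values. Rpa3, the smallest subunit of the protein that coats single-stranded DNA, was at 33.8 ± 3.88 FPKM in young AL, 34.7 ± 1.75 in young CR, 27.8 ± 1.86 in aged AL and 28.5 ± 1.73 in aged CR mice (SD, n = 3 each). Its log2 fold change for age was -0.27 (standard error 0.066, limma adjusted p = 0.0892). Rfc3, a subunit of the loader of the Pcna ring, was at -0.23 for age (standard error 0.068, limma adjusted p = 0.145). Asf1a, a histone chaperone, was at -0.22 (adjusted p = 0.170), Rnaseh2c, of the enzyme that removes ribonucleotides from DNA, at -0.24 (adjusted p = 0.188), and Tyms, thymidylate synthase, at -0.18 (adjusted p = 0.203). Gmnn, which encodes geminin, the inhibitor of Cdt1, was at -0.22 (adjusted p = 0.206), and Gins1, of the active helicase, at -0.20 (adjusted p = 0.226).
For diet, Rb1, the pocket protein that restrains E2F, was at 21.0 ± 2.38 FPKM in young AL, 15.5 ± 1.49 in young CR, 20.7 ± 3.35 in aged AL and 16.1 ± 1.01 in aged CR mice. Its log2 fold change over both ages was -0.37 (standard error 0.088, limma adjusted p = 0.0965). Skp2, which marks Cdt1 and other cell cycle proteins for destruction, was at 0.24 (adjusted p = 0.148), and Hells, a remodeller of newly copied chromatin, at -0.24 (adjusted p = 0.175). Samhd1, which breaks down nucleotides for DNA synthesis, was at -0.22 (adjusted p = 0.165). Rrm2b, the form of the reductase subunit used outside S phase, was at -0.26 (adjusted p = 0.175), while Rrm2 itself was at -0.014.

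The 15 mitosis markers, genes of the next phase of the cycle, were not called either, and 13 of 15 were lower in aged mice with a median of -0.091. For age, 2 of these 15 reached an unadjusted p under 0.05 (limma), against 16.6% of all genes. Birc5, an inhibitor of cell death that also serves in chromosome segregation, was at -0.21 for age (limma, adjusted p = 0.210) and Cdc20, the activator of the anaphase complex, at -0.13 (adjusted p = 0.191). Averaged per mouse, mitosis markers deviated by -0.18 in aged AL mouse 15 and by -0.18 in aged CR mouse 5, the 2 lowest of the 12, as for the licensing genes. The lists of origin recognition, origin firing, nucleotide supply, chromatin at the fork and E2F genes also had their 2 lowest values in these mice. For polymerases and fork proteins mouse 15 was the lowest, at -0.17, and aged CR mouse 7 (-0.091) lay just below mouse 5 (-0.086). Over the 12 mice the mean deviation of the licensing genes went with that of origin firing (r = 0.91), chromatin at the fork (r = 0.89), origin recognition (r = 0.87), mitosis (r = 0.84), nucleotide supply (r = 0.80), polymerases (r = 0.79) and E2F genes (r = 0.75). Without the 2 mice these values were 0.66, 0.57, 0.43, 0.68, 0.30, 0.29 and 0.51.

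Markers of blood precursors of the marrow were set beside the licensing genes, without a test of the difference between lists. Erythroid markers, with 15 of 16 genes in the table, were lowest in the same mice, at -0.37 in aged AL mouse 15 and -0.28 in aged CR mouse 5, and their list went with the licensing genes at r = 0.67 over 12 mice and 0.27 without these mice. Their summed level ran from 1977 to 2444 FPKM in young AL, 2074 to 3001 in young CR, 1758 to 2672 in aged AL and 1788 to 2902 in aged CR mice, and 0 of 15 were called for diet or age. Early B cell markers summed to 311 to 380 FPKM in young AL, 175 to 240 in young CR, 90.6 to 331 in aged AL and 150 to 165 in aged CR mice. Their list had r = -0.078 with the licensing genes over 12 mice and 0.165 without mice 15 and 5. Their median log2 fold change was -0.57 for CR and -0.66 for age, with 0 of 12 tested genes called in either.
Granulocyte precursor markers, with 12 of 12 lower in aged mice at a median of -0.20 and 0 called, had r = 0.15. Without mice 15 and 5 their r was 0.323, above that of the erythroid markers. For age, 3 of these 12 genes reached an unadjusted p under 0.05 (limma), against 16.6% of all genes. Stem and progenitor markers, with 10 of 12 genes tested, had r = -0.13, and 0.244 without mice 15 and 5. For them aged AL mouse 15 was at 0.043 and aged CR mouse 5 at 0.084, so neither was low. Megakaryocyte markers had r = -0.48, and -0.227 without mice 15 and 5. The part of any of these cells in the levels of the licensing genes was not tested.

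**Figure D5:**
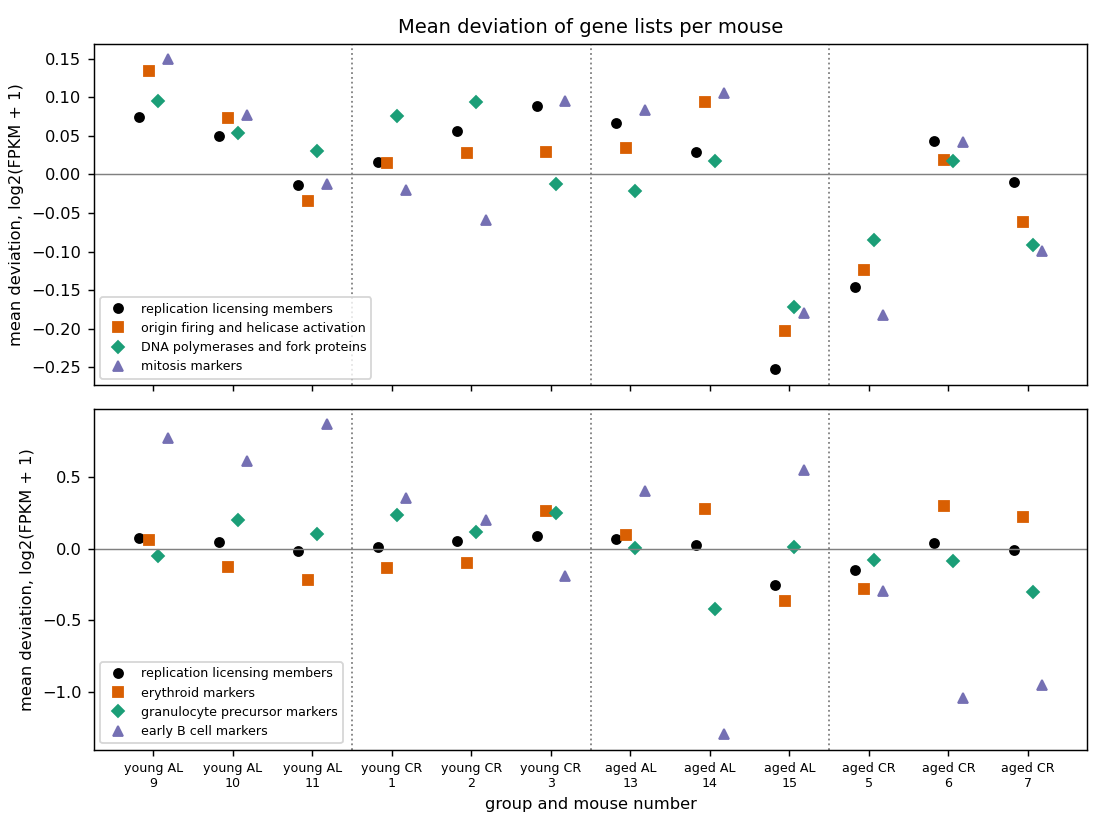
Mean deviation of the genes of a list from their 12-mouse averages, on the log2(FPKM + 1) scale, for each mouse; upper panel, licensing genes with other replication and mitosis lists, lower panel, with marrow cell markers on a wider scale. Aged AL mouse 15 and aged CR mouse 5 are below 0 for all lists in the upper panel and for erythroid markers, and early B cell markers range far more widely than the licensing genes.

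Markers of osteoblasts and osteocytes were present in every mouse, at 574 to 1917 FPKM in sum. The lowest sum, 574 FPKM, was that of aged AL mouse 14, where skeletal muscle markers summed to 1054 FPKM, the highest of all mice. Its early B cell (-1.30) and granulocyte precursor markers (-0.42) also had the lowest mean deviations, but not its erythroid markers (0.28) or licensing genes (0.029). Whether the tissue content of mouse 14 affected its licensing genes was not tested. Markers of the growth plate, the other dividing compartment of the bone, were lower in aged mice. Of 9 listed cartilage markers 6 were tested, and 5 of these were called lower over both diets, at a median log2 fold change of -1.71. Col9a1 and Matn3 met the expression limit only through the young mice, so this count and median partly follow from the filter. Col2a1, above the limit in every group, was at 32.2 FPKM in young AL, 25.0 in young CR, 7.01 in aged AL and 6.01 in aged CR mice. Adipocyte markers were higher with CR, with 4 of 8 called over both ages. Skeletal muscle markers varied from 147 to 1054 FPKM in sum, although muscle was removed before extraction. The licensing genes showed no difference of that size in either comparison.

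Among all tested genes, those whose pattern over the 12 mice was most like the mean of the licensing genes were Slx4ip (Pearson r = 0.96), Gpsm2 (0.93), S100a8 (0.92), Ubac1 (0.91), Ube2c (0.90), Fn3krp (0.90), Msh6 (0.90) and Fbxo30 (0.89). The least alike were Creld2 (-0.93), Pon3 (-0.93), Eaf2 (-0.92) and Derl3 (-0.92). These correlations describe 12 mice in 4 groups and were picked from 13590 genes. Over the 10 mice other than the 2 low ones, Msh6, a mismatch repair gene, stood at 0.77 and Ube2c, of the anaphase machinery, at 0.76, Slx4ip at 0.70 and Creld2 at -0.18. S100a8, among the most abundant transcripts, had 1 identical value in the other 10 mice, since quantile normalization gives genes of equal rank equal values.

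Some of these genes have close copies, which matters for their FPKM. The spliced transcripts of Pcna share 23.3% of their 31-base words with other genes, nearly all with Pcna-ps2, a processed pseudogene at chr19:9283380-9284160. Pcna-ps2 was listed at 80.4 to 113 FPKM, and Pcna was 2.03 to 2.22 times as high in every mouse. Reads of both cannot be assigned with certainty, so the level of Pcna is uncertain while its ratio to the copy was steady.
Mcm7 shares 26.8% of its words, mostly with the processed pseudogene Gm5487, and it overlaps Ap4m1 and Cops6 on the opposite strand by 421 and 64 bases and holds Mir25, Mir93 and Mir106b. Library preparation kept the strand, but the sources used here do not say whether counting did. Rrm2 shares 12% of its words, and its largest partners are processed pseudogenes. Cdc6 shares 8.78%, Mcm4 5.26% and Mcm6 1.35%, each with a processed pseudogene. Mcm5 shares 1.48% and Mcm2 1.19%, and their largest partners, Riok3 and Uba1, are protein-coding genes. Mcm3 and Cdt1 share none. Cdt1 does overlap Gm20388, a protein-coding gene on its own strand, over all of its 5540 bases. Gm20388 has no value of its own in the table. By GENCODE M21 on GRCm38 the genes lie on 8 chromosomes. The shortest is Pcna at chr2:132249162-132253314, minus strand, of 4153 bases. The longest is Mcm6 at chr1:128331590-128359664, minus strand, of 28075 bases.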

How the data were processed

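Tibia RNA of 12 mice was sequenced by the authors from stranded mRNA libraries. Per the labels, reads were checked with FastQC 0.11.8 and MultiQC 1.6, trimmed with Trim Galore 0.5.0, aligned to mm10 with STAR 2.6.1 and quantified with StringTie 2.1.3b. Before they were deposited, the authors quantile normalized the FPKM with R 4.1.1: at equal rank the largest difference between any mice was 0.00936 FPKM, and totals ran from 636207 to 636212 FPKM. A change in total mRNA cannot be seen after this step. The sources used here do not say how the 4 technical repeats of a mouse were combined. FPKM hold no read counts, so depth and counting error are unknown.

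Values were taken as log2(FPKM + 1), and fold changes on this scale understate those of low genes. The 13590 genes averaging 1 FPKM or more were fitted in limma 3.58.1 (R 4.3.3) with 4 group means and a mean-dependent prior, with Benjamini-Hochberg adjustment over all genes within a comparison and a call at 0.05. The step was tested on simulated data, with changes set in young CR mice that were larger than any estimated for the 10 genes. That test does not show whether changes as small as theirs would be found. Single genes were also tested by exact permutation of mice within the other factor, 400 arrangements. With 3 against 3 mice no exact p goes under 0.1. For a list, the deviations of its genes from their own 12-mouse means were averaged per mouse. Named were the 10 genes, up to 4 called genes or otherwise the smallest p-values of each other list, and the 8 most and 4 least alike genes; of these only a part is given here. The genes and lists were chosen with earlier results of these data known. Positions come from GENCODE M21, and 31-base words were compared over its transcripts. Alternatives were other pseudocounts, filters, scalings, weights, priors and tests, fits of only the groups compared, each mouse left out, and, added later, pairs of mice left out and a replicate block of mice with adjacent identifiers.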

Additional observations from a re-analysis of the deposited data

How the results depend on the processing

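Over 26 alternative settings, 1730 fold changes of the 10 genes were recomputed, and none was called at an adjusted p under 0.05. The lowest adjusted p was 0.547 for CR in young mice, 0.426 for CR in aged mice, 0.309 for CR over both ages, 0.148 for age over both diets, 0.398 for age in AL mice, 0.267 for age in CR mice and 0.532 for the interaction. With unadjusted p, 2 of the 10 passed for age over both diets and 0 in the other comparisons. Of the recomputed values 148 changed sign, none of them called, and the largest of these in the original fit was 0.10 in size. Settings that change only the filter, the prior or the test keep the original fold change. The same holds where the mouse left out belongs to a group not compared. Such values could not change sign, so the share of 148 in 1730 understates how often a sign could move. The median for age over both diets stayed below 0 throughout, from -0.12 without aged AL mouse 13 to -0.017 when mice 15 and 5 were both left out. In AL mice it ran from -0.15 without mouse 13 to -0.0027 without mouse 15, and in CR mice from -0.16 without mouse 6 to -0.047 without mouse 5. For CR in aged mice the median was -0.071 without aged AL mouse 15. Leaving out aged AL mouse 14 and aged CR mouse 5 together, a choice made after the data were seen, moved it from 0.0084 to 0.12 and the median interaction from -0.037 to 0.084, and the cause was not tested. Scaling without the globin genes changed little by construction, since quantile normalization left them at 29.1% of the total in each of the mice. The mice carry different numbers in every group, and the labels give no pairs. Identifiers of CR and AL mice do follow each other within an age, so a replicate block over these adjacent mice was fitted, a choice made after the data were seen. It gave 0 called genes of the 10 for CR in young mice, in aged mice, over both ages and for the interaction (limma, lowest adjusted p 0.814, 0.926, 0.777 and 0.999). Over all genes the block left 0 of 9 calls in young mice and 0 of 35 over both ages. Deviations of the adjacent mice from their group means correlated at -0.14 to 0.034 over genes, and 5 of the 6 pairs were below 0. Age differs between such pairs and could not be fitted with them. With 3 mice per group the precision is set by the spread between mice.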
